A study of Mus musculus with 48 samples.

Results

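Kidneys of mice given D-alanine were compared with kidneys of mice given vehicle at CT8, circadian time 8 h. The comparison was read from 8 of the 48 libraries of the series, chosen by their treatment and time labels alone: 4 labelled D-Ala and 4 labelled Vehicle. All 48 libraries are wild-type mouse kidney, with 4 libraries for each of 2 treatments at each of 6 circadian times. The labels give neither dose nor route, nor strain, sex or age. Values come from 2 deposited tables, each with 2 D-Ala and 2 Vehicle libraries of CT8; the tables were taken as the 2 runs of the experiment that the series text mentions, which is an inference. D-Ala replicates 1 and 2 and Vehicle replicates 1 and 2 are in the first table, and replicates 3 and 4 of both treatments in the second. The series text speaks of kidneys from different mice, so each library was treated as 1 animal, although no label names an animal.

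D-alanine is the mirror image of L-alanine. In mammals it comes largely from food and gut bacteria, is filtered by the glomerulus, and is partly taken back by the proximal tubule, where the peroxisomal enzyme D-amino acid oxidase can degrade it. The kidney carries its own circadian clock, in which CLOCK or NPAS2 with BMAL1 (gene Arntl) drive the Per, Cry and Nr1d genes and output factors such as Dbp, and several of these products repress the drivers in turn. Clock outputs in the tubule include transport of amino acids, glucose and sodium, and the proximal tubule is also a site of gluconeogenesis.

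Depth, recovered from the step size of the deposited FPKM values (fragment counts scaled by exon length and library size), was 10882560 to 11663940 fragments in D-Ala libraries and 10757130 to 12944480 in Vehicle libraries at CT8. Proximal tubule transcripts were abundant in every library: its 12 markers summed to between 37370 and 55100 FPKM with D-Ala and between 37890 and 66420 FPKM with Vehicle. Markers of other regions differed between libraries. The 8 thin limb and inner medulla markers summed to 357.5, 289.6, 29.05 and 134.8 FPKM in D-Ala and 30.51, 39.19, 45.95 and 53.55 FPKM in Vehicle (replicates 1 to 4 in each). D-Ala replicates 1, 2 and 4 were above all Vehicle libraries and D-Ala replicate 3 was below them. The markers did not all follow the sum. Fst was lower in every D-Ala library than in every Vehicle library, as 0.288% of all genes were. The median log2 difference of the 8, D-Ala minus Vehicle, was 2.16 in the first table and -0.33 in the second. Slc14a2, the urea transporter of the inner medullary collecting duct, read 44.0, 33.2, 0.0838 and 12.7 FPKM in D-Ala and 2.58, 2.51, 5.37 and 4.59 FPKM in Vehicle. The 7 urothelial markers summed to 26.92, 37.56, 0.7461 and 22.04 FPKM in D-Ala and 3.789, 6.659, 7.393 and 7.504 FPKM in Vehicle, with the same D-Ala library below all others. The 8 adipocyte markers summed to 29.67, 88.66, 10.79 and 17.6 FPKM in D-Ala and 6.635, 7.052, 13.14 and 12.95 FPKM in Vehicle, highest in D-Ala replicate 2. Results below are therefore also given, where that bears on them, with the library's inner medulla score as a covariate (the mean standardised log2 level of those markers), in the second table alone, or without D-Ala replicates 1 and 2. In whole-kidney RNA, fewer cells of a type and less RNA per cell cannot be told apart.

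**Figure D1:**
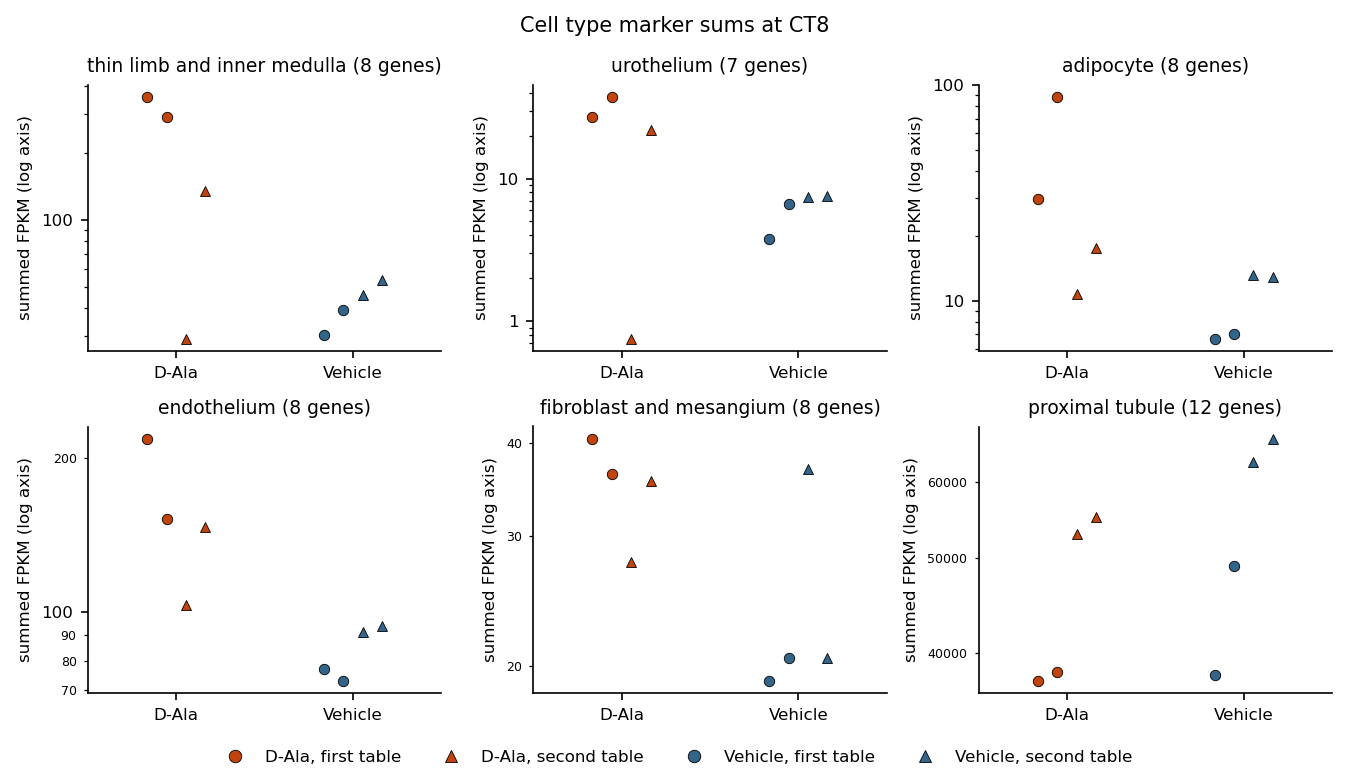
Summed FPKM (log axis) of lists of cell type markers in each CT8 library, D-Ala to the left of Vehicle; circles are libraries of the first table and triangles of the second. D-Ala replicates 1 and 2 carry the highest inner medulla sums, 357.5 and 289.6 FPKM, and D-Ala replicate 3 the lowest of the 8 libraries, 29.05 FPKM, while all 4 D-Ala endothelial sums lie above the Vehicle range of 72.93 to 93.6 FPKM.

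Across the transcriptome no single gene separated the treatments past the threshold. With limma on log2(FPKM + 1) and Benjamini-Hochberg adjustment at 0.05, 0 of 14922 genes (0%) were called at CT8 in either direction, and the smallest adjusted p was 0.272. Before adjustment, 2215 genes (14.8%) had a p under 0.05, of which 2036 (13.6%) were higher and 179 (1.2%) lower with D-Ala. limma voom on the recovered fragments also called 0 genes, with 2350 at an unadjusted p under 0.05. The median log2 difference over all genes was 0.10, and 71.9% of genes lay above 0, so each value below stands against that shift. The split depended on the scaling: after each library was centred on its median gene, 554 genes were higher and 1013 lower at that unadjusted level, and after quantile normalization 745 and 663. Single libraries mattered as well, since the count of 2215 became 1198 without Vehicle replicate 1 and 1217 without D-Ala replicate 1. Without D-Ala replicates 1 and 2 together it was 638, with a median log2 difference over all genes of 0.08. That fit has a smaller D-Ala group, which lowers such a count by itself. Every D-Ala library lay above every Vehicle library in 918 genes (6.15%) and below in 43 genes (0.288%).

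The 10 genes with the smallest p among those with a positive difference in both tables were Orai3, Recql, Fam98a, Cadm1, Coro1c, Gopc, Bloc1s3, Ly6e, Extl3 and Prelp, each with an adjusted p of 0.272. Orai3, a subunit of store-operated calcium channels (chr7:127769815-127775150 in GRCm38), had 8.15, 7.45, 12.2 and 11.8 FPKM in D-Ala and 4.99, 5.95, 8.64 and 7.67 FPKM in Vehicle, a log2 difference of 0.48 ± 0.10 (SE). The groups overlapped across tables but not within either one. Ly6e, a membrane-anchored surface protein induced by interferon (chr15:74955051-74959905), read 119, 112, 107 and 118 FPKM in D-Ala and 34.3, 50.4, 74.5 and 79.5 FPKM in Vehicle, a difference of 1.0 ± 0.24. All 4 D-Ala libraries were above all Vehicle libraries, and their SD of 5.34 FPKM was smaller than the 21.2 FPKM of Vehicle. Recql, a DNA helicase (chr6:142350342-142387087), averaged 2.21 ± 0.187 FPKM in D-Ala and 1.38 ± 0.260 FPKM in Vehicle (SD, n = 4 each), also without overlap. Fam98a, an RNA-binding protein, averaged 12.6 ± 0.891 FPKM in D-Ala and 8.79 ± 1.34 FPKM in Vehicle, Cadm1, a cell adhesion molecule, 3.31 ± 0.492 FPKM in D-Ala and 1.95 ± 0.180 FPKM in Vehicle, and Gopc, a Golgi trafficking protein, 10.1 ± 0.957 FPKM in D-Ala and 6.81 ± 0.463 FPKM in Vehicle (SD, n = 4 each). None of these 3 overlapped, nor did Bloc1s3, a subunit of a complex in the making of lysosome-related organelles, or Extl3, a glycosyltransferase of heparan sulfate synthesis, which differed by 0.63 ± 0.15 and 0.49 ± 0.12. The groups overlapped for Coro1c, an actin-binding coronin (0.29 ± 0.07), and for Prelp, a matrix proteoglycan (0.82 ± 0.20), in which Vehicle replicate 3 reached 5.14 FPKM against 2.24 to 2.46 FPKM in the other Vehicle libraries. In 8 of the 10 the difference was larger in the first table. With the inner medulla score added as a covariate all 10 stayed positive, from 0.27 for Coro1c to 0.76 for Ly6e, and none passed.

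The 10 genes named by the same rule with a negative difference were Gamt, Fmc1, Ceacam2, Adk, Gpr160, Slc22a26, Slc38a3, Slc7a12, Acy1 and mt-Nd2, with adjusted p of 0.272 to 0.275; 9 gene models known only by an identifier or clone name were passed over. Slc38a3, a glutamine transporter of the proximal tubule (chr9:107650634-107669530), had 12.3, 7.38, 9.52 and 9.49 FPKM in D-Ala and 26.2, 12, 19.7 and 15.3 FPKM in Vehicle. The lowest Vehicle library just reached into the D-Ala range, and the log2 difference was -0.82 ± 0.27, close to the -0.83 of the first table and the -0.81 of the second. Slc7a12, a neutral amino acid transporter (chr3:14480697-14505830), read 0.106, 0.345, 0.411 and 0.788 FPKM in D-Ala and 4.47, 1.06, 2.14 and 0.889 FPKM in Vehicle. Its groups did not overlap, although the highest D-Ala and lowest Vehicle values were close, and the difference was -1.04 ± 0.35. Acy1, which frees amino acids from their N-acetylated form, averaged 53.7 ± 8.84 FPKM in D-Ala and 72.1 ± 9.47 FPKM in Vehicle, and Gamt, which completes creatine synthesis (chr10:80258151-80261012), 17.9 ± 4.8 FPKM in D-Ala and 24.3 ± 3.74 FPKM in Vehicle (SD, n = 4 each). Gamt, Fmc1, an assembly factor of ATP synthase, and Adk, adenosine kinase, differed mainly in the first table, by -0.76, -0.69 and -0.61 on the log2 scale, against -0.13, -0.15 and -0.11 in the second. Slc22a26, of the organic anion transporter family, differed mainly in the second (-1.12, against -0.30 in the first). Ceacam2, a cell adhesion molecule, and Gpr160, an orphan receptor, were alike in both tables, with -0.98 and -1.23 for Ceacam2 and -0.42 and -0.42 for Gpr160.

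**Figure D2:**
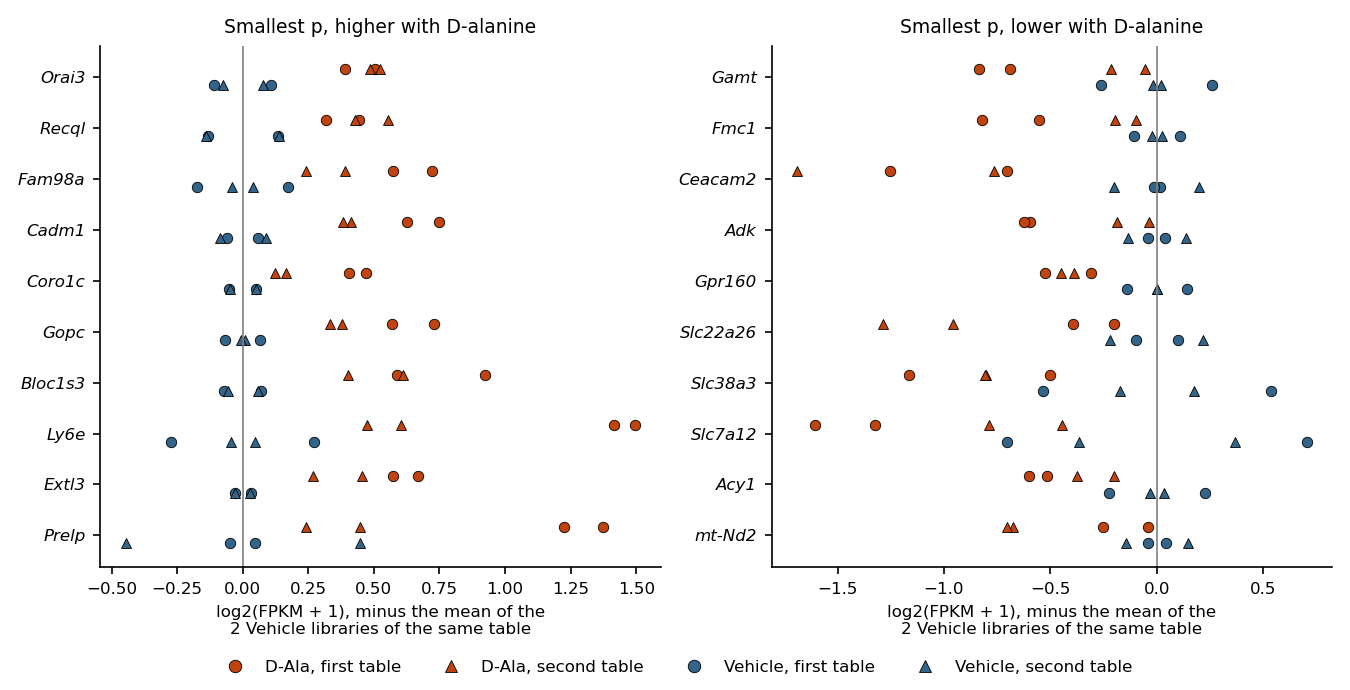
Log2(FPKM + 1) of the 20 named genes in each CT8 library, relative to the mean of the 2 Vehicle libraries of the same table; circles are the first table and triangles the second. For Orai3, Recql, Cadm1 and Gopc all D-Ala points lie to the right of 0 and apart from the Vehicle points, whereas for Gamt and Adk the D-Ala triangles lie near 0, where the differences were -0.13 and -0.11.

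Genes that handle D-amino acids and alanine leaned in opposite directions in the 2 tables. Of 12 measured, 1 was at an unadjusted p under 0.05, beside 14.8% of all genes, and 5 were above 0, with a median log2 difference of -0.01. In the first table the number above 0 was 2 and the median -0.23, and in the second 10, with a median of 0.24. After rescaling to TPM 9 of the 12 lay above 0, and after median centring 2. The gene at that level was Slc1a4, an exchanger of alanine, serine and cysteine, with 7.19, 8.91, 9.63 and 9.94 FPKM in D-Ala and 6.17, 5.80, 7.51 and 8.54 FPKM in Vehicle (0.31 ± 0.14, adjusted p = 0.306). Within each table both D-Ala libraries lay above both Vehicle libraries, but the groups overlapped as a whole. Dao, D-amino acid oxidase itself, is given for its role and was chosen after its values were seen: it averaged 139 ± 36.4 FPKM in D-Ala and 140.2 ± 18.0 FPKM in Vehicle (SD, n = 4 each), and its difference of -0.04 ± 0.12 had an adjusted p of 0.909. Srr, serine racemase, Agxt2, a mitochondrial aminotransferase, and the monocarboxylate transporters Slc5a8 and Slc5a12 differed by 0.07 ± 0.10, -0.12 ± 0.15, -0.18 ± 0.16 and 0.25 ± 0.34.

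Among 14 measured amino acid transporters of the tubule, 2 were lower at an unadjusted p under 0.05 and none was higher, beside 1.2% and 13.6% of all genes. Slc38a3 was one, and Slc6a18, a glycine transporter of the proximal tubule brush border (chr13:73661750-73678023), the other. Slc6a18 read 128, 115, 118 and 115 FPKM in D-Ala and 172, 152, 185 and 139.5 FPKM in Vehicle. The groups did not overlap, and the difference was -0.43 ± 0.18 (adjusted p = 0.289), with -0.41 and -0.46 in the 2 tables and -0.51 without D-Ala replicates 1 and 2. At the other 5 times its mean difference was 0.06. Slc6a13, a transporter of GABA and taurine, averaged 34.5 ± 4.11 FPKM in D-Ala and 42.6 ± 2.79 FPKM in Vehicle, and Slc3a1, a subunit of the transporter for cystine and dibasic amino acids, 147 ± 30.6 FPKM in D-Ala and 168 ± 20.6 FPKM in Vehicle. Their differences of -0.30 ± 0.15 and -0.20 ± 0.12 had adjusted p of 0.343 and 0.436. The direction of the list depended on the setting: 5 of 14 members were above 0 here, 8 after rescaling to TPM, 1 after median centring and 10 in the second table alone.

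Heat shock chaperones, which refold damaged proteins and are induced by the factor HSF1, lay mostly above 0. The list also holds Hsf1, the gene of that factor. Of 17 measured, 7 were higher at an unadjusted p under 0.05 and none lower, beside 13.6% and 1.2% of all genes, and 16 lay above 0, with a median of 0.20 against 0.10 for all genes. After median centring 11 of 17 lay above 0, with a median of 0.04. Hsph1, a large co-chaperone related to HSP70 (chr5:149614287-149636376), read 52.9, 44.4, 12.2 and 19.5 FPKM in D-Ala and 7.80, 7.56, 9.40 and 10.9 FPKM in Vehicle, a difference of 1.54 ± 0.45 (adjusted p = 0.272). All D-Ala libraries were above all Vehicle libraries, and those of the first table stood far above those of the second. The inducible HSP70 gene Hspa1b read 79.2, 102, 3.09 and 32.1 FPKM in D-Ala and 2.83, 2.81, 3.78 and 6.32 FPKM in Vehicle (2.78 ± 1.0, adjusted p = 0.275). D-Ala replicate 3 lay inside the Vehicle range and the other 3 above it. Hspa1a, its near-identical neighbour, read 25.8, 32.2, 3.52 and 11 FPKM in D-Ala and 2.76, 2.97, 2.94 and 4.12 FPKM in Vehicle (1.83 ± 0.59); how fragments of this pair were shared out is not stated, so the split between them is uncertain. Hspb1, a small heat shock protein, averaged 25.1 ± 15.0 FPKM in D-Ala and 9.81 ± 1.98 FPKM in Vehicle (SD, n = 4 each; 1.06 ± 0.42). Bag3, a co-chaperone, Hspa4l, an HSP110 family chaperone, and Dnajb1, an HSP40 co-chaperone, differed by 0.36 ± 0.13, 0.82 ± 0.35 and 0.33 ± 0.14, each with overlap.

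The proximal promoters of the HSP70 pair and of Hspb1 are shown because these genes differed by over 1 on the log2 scale and hold the motif searched, and because the pair is nearly the same in sequence. They are the 250 bases before the annotated start, from RefSeq on GRCm38.p6, and the capitals mark GAANNTTC, a pair of the inverted units that make up a heat shock element (the motif reads the same on both strands). Hspa1a lies at chr17:34972157-34972406 and Hspa1b at chr17:34959239-34959488, both on the minus strand, and Hspb1 at chr5:135887669-135887918 on the plus strand.
Hspa1a: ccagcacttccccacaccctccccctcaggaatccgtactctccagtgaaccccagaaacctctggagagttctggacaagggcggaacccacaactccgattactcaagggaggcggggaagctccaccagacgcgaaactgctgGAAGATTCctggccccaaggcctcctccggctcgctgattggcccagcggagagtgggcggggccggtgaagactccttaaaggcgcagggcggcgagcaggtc
Hspa1b: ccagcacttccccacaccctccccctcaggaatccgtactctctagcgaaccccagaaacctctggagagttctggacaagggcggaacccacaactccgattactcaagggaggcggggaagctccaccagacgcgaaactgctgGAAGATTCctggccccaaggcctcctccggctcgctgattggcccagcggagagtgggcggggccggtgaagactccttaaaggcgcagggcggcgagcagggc
Hspb1: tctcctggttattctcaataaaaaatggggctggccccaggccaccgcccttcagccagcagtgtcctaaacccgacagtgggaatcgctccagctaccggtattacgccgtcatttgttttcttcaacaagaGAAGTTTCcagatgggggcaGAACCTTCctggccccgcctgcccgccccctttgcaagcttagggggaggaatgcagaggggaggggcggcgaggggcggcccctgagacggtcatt
The windows of Hspa1a and Hspa1b differed at 3 of 250 bases. The motif was found in 6 of the 18 windows of listed heat shock genes, which belong to 13 genes, and in 6.69% of all 32851 windows of that length. After rescaling to TPM, Hspa1a, Hspa1b and Hspb1 differed by 2.04, 2.98 and 1.18, where the median over all genes was 0.19. Hspd1, Hspe1 and Dnaja1, which also have a match, differed by 0.10, 0.05 and 0.30 in that setting. Hsph1, which differed by 1.67 in that setting, had no match to GAANNTTC. Bag3, Dnajb1, Hspa4l, Chordc1, Ahsa1 and Stip1 had none either. The same inverted units in the opposite order were not searched. A window without a match, those of Hsph1 included, can therefore still hold a heat shock element. The windows of Hspd1 and Hspe1, neighbours on opposite strands, hold the same match; a match is a description of the letters only.

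In 7 of the 17 heat shock genes the D-Ala libraries stood in the order of the inner medulla marker sums. Replicates 1 and 2 were highest, then 4, then 3. These genes were Hsph1, Hspa1a, Hspa1b, Hspb1, Hspa4l, Bag3 and Hsf1. Slc14a2 and Akr1b3 stood in that order too, but both are among the markers summed. In 7 other heat shock genes, replicates 3 and 4 were both above replicates 1 and 2. The share of all genes in either order was not counted. Akr1b3, the aldose reductase that makes the osmolyte sorbitol in the inner medulla, read 165, 124, 7.37 and 47.0 FPKM in D-Ala and 6.05, 9.71, 7.12 and 11.9 FPKM in Vehicle (2.51 ± 1.01). Its D-Ala replicate 3 lay inside the Vehicle range. Of 9 measured inner medulla osmolyte genes, Hspa1b among them, all lay above 0, beside 71.9% of all genes. At an unadjusted p under 0.05, 4 were higher, beside 13.6% of all genes. The median was 0.97, with 2.41 for the first table and -0.14 for the second. With the inner medulla score in the fit the differences of Hsph1 and Hspa1b were 1.06 and 1.57, and in the second table alone 0.56 and 0.98. Over the heat shock list with the score in the fit, the median was 0.23, 17 of 17 lay above 0 and 6 were higher at an unadjusted p under 0.05. In the second table the median was 0.06, 11 of 17 lay above 0 and 0 were higher at that level, and without D-Ala replicates 1 and 2 the count was also 0. Over all 14922 genes, 1329, 703 and 468 were higher at that level under these settings in turn. The fits of the second table and without D-Ala replicates 1 and 2 have fewer libraries, which lowers such counts by itself. The part of inner medullary tissue in these values was not tested further.

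**Figure D3:**
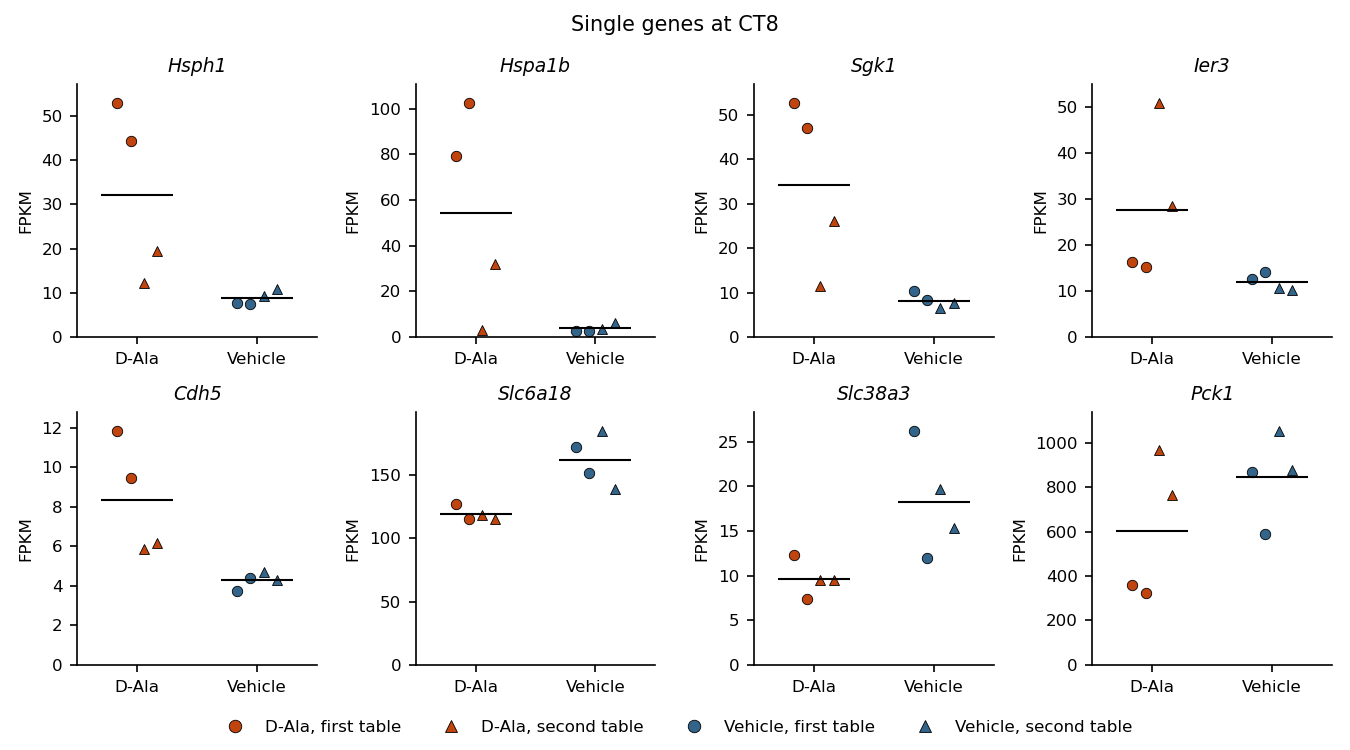
FPKM of 8 genes in each CT8 library, D-Ala left of Vehicle; lines mark group means, circles the first table and triangles the second. Hsph1, Sgk1, Ier3 and Cdh5 show no overlap with D-Ala above, and Slc6a18 none with D-Ala below, while Hspa1b, Slc38a3 and Pck1 overlap.

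Glucocorticoids are adrenal hormones that help to set peripheral clocks. Of 14 measured genes of the glucocorticoid response, a list that also holds the receptor gene Nr3c1, 4 were higher at an unadjusted p under 0.05. None was lower at that level, beside 13.6% of all genes higher and 1.2% lower. Nr3c1 was among the 4. After median centring 2 were higher and 1 lower. The list lay above 0 in 10 of 14, with a median of 0.29. In the first table alone 7 of 14 lay above 0, with a median of 0.06 beside 0.12 for all genes. In the second alone 13 did, with a median of 0.32 beside 0.08. Sgk1, a kinase that stimulates sodium transport (chr10:21882184-21999903), read 52.6, 47.0, 11.6 and 26.1 FPKM in D-Ala and 10.3, 8.35, 6.48 and 7.61 FPKM in Vehicle, a difference of 1.75 ± 0.54 (adjusted p = 0.272). The groups did not overlap, and the D-Ala libraries stood in the same order as for Hsph1. How many of all genes stood in that order was not counted. Tsc22d3, which encodes the leucine zipper protein GILZ, read 16.6, 15.7, 9.65 and 12.7 FPKM in D-Ala and 7.25, 7.74, 4.71 and 8.88 FPKM in Vehicle (0.85 ± 0.34), again without overlap. The glucocorticoid receptor gene Nr3c1 averaged 7.93 ± 0.759 FPKM in D-Ala and 5.99 ± 0.450 FPKM in Vehicle, without overlap, and Zbtb16, a transcription factor, 0.659 ± 0.319 FPKM in D-Ala and 0.262 ± 0.116 FPKM in Vehicle, with overlap (SD, n = 4 each). Adjusted p were 0.281 for Tsc22d3, 0.281 for Nr3c1 and 0.328 for Zbtb16. Fitted with the inner medulla score, the differences were 1.12 for Sgk1, 0.51 for Tsc22d3 and 0.24 for Nr3c1.

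Immediate early genes, which respond rapidly to growth factors and stress, were higher at an unadjusted p under 0.05 in 4 of 18 measured and lower in none, beside 13.6% and 1.2% of all genes; 17 lay above 0, and 14 after median centring. Ier3, an early response gene with a role in cell survival (chr17:35821684-35822923), read 16.3, 15.2, 50.9 and 28.5 FPKM in D-Ala and 12.7, 14.1, 10.6 and 10.3 FPKM in Vehicle, a difference of 1.0 ± 0.28 (adjusted p = 0.272). The groups did not overlap, and here the high libraries were those of the second table, D-Ala replicate 3 above all. Without D-Ala replicates 1 and 2 the difference was 1.63 (adjusted p = 0.106). Jun, a subunit of the AP-1 factor, was likewise highest in D-Ala replicate 3, at 17.5 FPKM, against 4.84 to 6.53 FPKM in the other D-Ala libraries and 4.10 to 6.18 FPKM in Vehicle. Btg2, an antiproliferative gene, was lowest in that D-Ala library, with 12.2, 7.82, 5.47 and 7.59 FPKM in D-Ala and 3.46, 3.44, 3.73 and 5.14 FPKM in Vehicle (0.87 ± 0.28). All its D-Ala libraries were above all its Vehicle libraries. Fosl2, another AP-1 subunit, and Cyr61, a matrix-associated growth regulator, differed by 0.94 ± 0.38 and 0.54 ± 0.23.

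All 8 measured endothelial markers were higher at an unadjusted p under 0.05, beside 13.6% of all genes, and 5 of them did not overlap, where 6.15% of all genes did not overlap in that direction; none passed the adjusted threshold. Cdh5, the cadherin of endothelial junctions (chr8:104101625-104144511), read 11.8, 9.45, 5.89 and 6.18 FPKM in D-Ala and 3.76, 4.41, 4.69 and 4.28 FPKM in Vehicle, a difference of 0.78 ± 0.21 (adjusted p = 0.272). D-Ala libraries of the first table were the highest, and those of the second were still above every Vehicle library. Emcn, a sialomucin of capillaries and veins, averaged 21 ± 11.3 FPKM in D-Ala and 7.61 ± 0.562 FPKM in Vehicle, and Pecam1, an adhesion molecule of endothelial junctions, 10.8 ± 3.77 FPKM in D-Ala and 5.23 ± 0.395 FPKM in Vehicle (SD, n = 4 each), both without overlap. Kdr, a VEGF receptor, and Ehd3, an endocytic protein, gave differences of 0.31 ± 0.11 and 0.35 ± 0.13, with overlap. The median of the 8 was 0.62, 1.01 for the first table and 0.36 for the second, 0.46 after median centring, 0.38 with the inner medulla score in the fit and 0.49 without D-Ala replicates 1 and 2. All 8 lay above 0 under each of these settings. The count at an unadjusted p under 0.05 was 4 after median centring, 4 under quantile normalization, 3 in the second table alone, 7 with the inner medulla score and 2 without D-Ala replicates 1 and 2. Over all 14922 genes, those higher at that level numbered 554, 745, 703, 1329 and 468 under these settings in turn, against 2036 in the main fit. Fewer libraries entered the fits of the second table alone and without D-Ala replicates 1 and 2, which lowers such counts by itself. At the other 5 times the median was 0.11, and no endothelial marker passed the test of CT8 against those times. The 8 fibroblast and mesangium markers also lay above 0, as 71.9% of all genes did, with a median of 0.37 and 0.17 in the second table. Of these, 3 were higher at an unadjusted p under 0.05, beside 13.6% of all genes. The count was 0 after median centring and 0 in the second table alone. The smallest p was that of Col1a2, a collagen chain (0.49 ± 0.19), and the largest difference that of Pdgfra, a PDGF receptor (0.81 ± 0.38). The 6 podocyte markers had a median of 0.06, below the shift of all genes.

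RNA made from the mitochondrial genome took a smaller share of the total with D-Ala within each table. It made up 39.0, 36.9, 17.4 and 16% of summed FPKM in D-Ala and 41.3, 39.3, 23.4 and 20.3% in Vehicle. The tables differed more than the treatments, but within each table both D-Ala libraries were below both Vehicle libraries. The mean difference over tables was -3.77 points, -2.36 for the first table and -5.18 for the second, and an exact permutation of treatment within table gave p = 0.0556 (two-sided, 36 arrangements), the smallest value this design allows. As a share of recovered fragments the values were 21.3, 20.3, 8.70 and 7.82% in D-Ala and 24, 22.6, 12.4 and 10.7% in Vehicle, again lower with D-Ala within both tables.

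All 13 mitochondrially encoded mRNAs, which specify subunits of the respiratory chain and of ATP synthase, lay below 0, and 7 were lower at an unadjusted p under 0.05 beside 1.2% of all genes; none passed the adjusted threshold. The median was -0.33, beside -0.23 at the other 5 times, and under quantile normalization 2 of 13 lay above 0. The count of 7 was 2 after rescaling to TPM, 1 under quantile normalization, 2 with no filter on low values, 2 with no table term and 9 after median centring. Fits of single tables gave 1 for the first and 9 for the second. Over all genes, those lower at that level numbered 96 of 17453 after rescaling to TPM and 358 of 25482 with no filter. Of 14922 genes, 663 were lower under quantile normalization, 66 with no table term and 1013 after median centring. The first table alone gave 275 and the second 197. mt-Nd2 and mt-Nd1, subunits of complex I, differed by -0.42 ± 0.15 and -0.33 ± 0.13, and mt-Cytb and mt-Co1, of complexes III and IV, by -0.30 ± 0.12 and -0.32 ± 0.12. mt-Nd3, another complex I subunit, had the largest difference of the 13 and a wide spread, with 139.7, 112, 276 and 224 FPKM in D-Ala and 756, 222, 1086 and 353 FPKM in Vehicle (-1.51 ± 0.53, adjusted p = 0.275). The 2 D-Ala libraries of the second table were above the lowest Vehicle library of the first, but within each table D-Ala was below Vehicle. mt-Co3, of complex IV, gave 499, 635, 882 and 847 FPKM in D-Ala and 2330, 881, 1492 and 988 FPKM in Vehicle, and it too was lower with D-Ala within each table. mt-Nd4l and mt-Atp6, which overlap neighbouring genes on the mitochondrial genome and can share their fragments, differed by -1.04 ± 0.69 and -0.61 ± 0.49. Of 18 nuclear genes for oxidative phosphorylation, 17 lay below 0 with a median of -0.12, and 1 was at an unadjusted p under 0.05, Ndufa4, a respiratory chain subunit (-0.23 ± 0.10, adjusted p = 0.315); after rescaling to TPM 8 of the 18 lay above 0. After median centring all 18 lay below 0, with 11 lower at that level, where 10.5% of all genes were at that level in either direction.

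**Figure D4:**
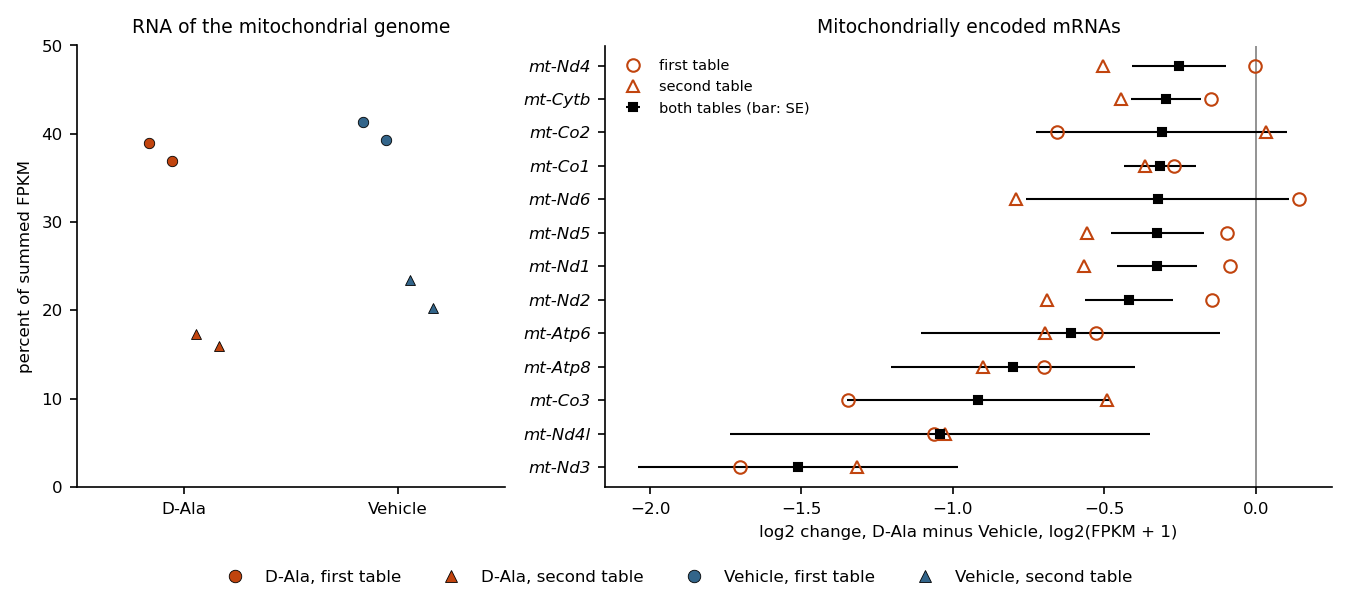
Left, percent of summed FPKM from the mitochondrial genome in each CT8 library, D-Ala left of Vehicle; right, log2 difference of the 13 mitochondrial mRNAs. The D-Ala points lie below the Vehicle points of the same table, 39.0 and 36.9% against 41.3 and 39.3% in the first, and 17.4 and 16% against 23.4 and 20.3% in the second.

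Core clock genes did not separate the treatments. Of 19 measured, 0 were at an unadjusted p under 0.05 in either direction with both tables in the fit, the smallest adjusted p was 0.50, for Clock, and for no gene were the groups free of overlap. Dbp, an output factor whose highest means of the 6 times were those of CT8, read 75.5, 81.5, 102 and 94.4 FPKM in D-Ala and 122, 90.0, 62.9 and 98.4 FPKM in Vehicle, a difference of -0.05 ± 0.27. The D-Ala range lay inside the Vehicle range, and for scale Dbp averaged 28.8 FPKM with D-Ala and 24.6 FPKM with Vehicle at CT4, and 77.6 FPKM with D-Ala and 71.3 FPKM with Vehicle at CT12. Nr1d1, the gene of the REV-ERB alpha repressor, averaged 39.0 ± 4.25 FPKM in D-Ala and 39.0 ± 10.9 FPKM in Vehicle, and the period gene Per2 9.21 ± 0.966 FPKM in D-Ala and 9.51 ± 1.92 FPKM in Vehicle (SD, n = 4 each).

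The 2 tables gave opposite signs for 16 of the 19 clock genes. In the first table Ciart, a repressor of CLOCK and BMAL1, Hlf, Dbp and Tef, output factors of one family, and the period genes Per1 and Per3 differed by -0.77, -0.51, -0.41, -0.38, -0.37 and -0.35 on the log2 scale, and Npas2, Arntl and Nfil3, which peak in the opposite part of the cycle, by 0.57, 0.52 and 0.50. In the second table the signs were the other way, with 0.59, 0.13, 0.31, 0.34, 0.53 and 0.16 for the first 6 and -0.27, -0.10 and -0.18 for the other 3. A fit of the second table alone put 4 of the 19 at an unadjusted p under 0.05, all higher, beside 6.03% of all genes in either direction. The first table alone put 2 higher and 1 lower at that level, beside 12.6% of all genes. None passed the adjusted threshold in either fit. Ciart read 7.88, 10.8, 12.4 and 11 FPKM in D-Ala and 23.4, 11.5, 5.22 and 10.3 FPKM in Vehicle. Among the Vehicle libraries replicate 1 had the highest Ciart, Per1, Dbp and Tef and the lowest Arntl and Npas2, and replicate 3 the reverse; both lay outside the D-Ala range for the first 4 of these genes. Arntl read 0.745, 0.581, 0.190 and 0.205 FPKM in D-Ala and 0.124, 0.195, 0.358 and 0.217 FPKM in Vehicle, highest in D-Ala replicates 1 and 2 and all low beside its means at CT0 of 4.26 FPKM with D-Ala and 3.33 FPKM with Vehicle. No clock gene passed the test of the difference between tables, whose smallest adjusted p over all genes was 0.786. The sign of the list also followed the scaling, with 11 of 19 genes above 0 here, 17 after rescaling to TPM and 3 after median centring.

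**Figure D5:**
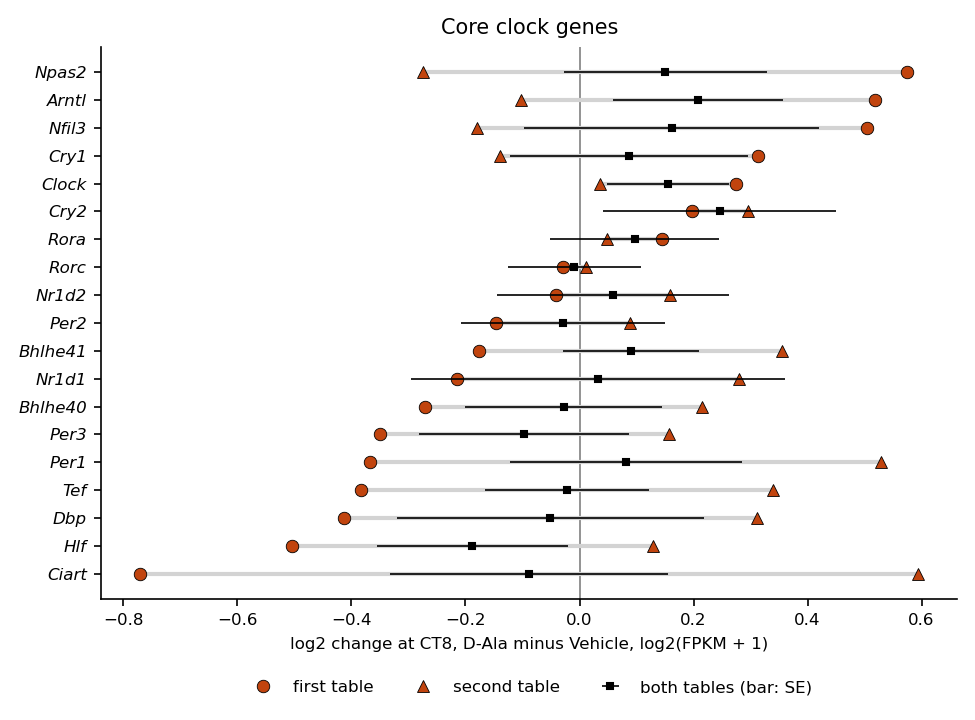
Log2 difference, D-Ala minus Vehicle at CT8, of the 19 core clock genes in the first table, in the second and in both together. For 16 genes the tables lie on opposite sides of 0, as for Ciart, at -0.77 for the first and 0.59 for the second.

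Of 15 clock-controlled outputs, 3 were higher at an unadjusted p under 0.05, Sgk1, Tsc22d3 and Wee1, a cell cycle kinase, and none lower, beside 13.6% and 1.2% of all genes. Wee1 read 2.58, 2.51, 4.86 and 3.96 FPKM in D-Ala and 2.17, 3.23, 2.17 and 2.99 FPKM in Vehicle, a difference of 0.28 ± 0.13 (adjusted p = 0.321) that was 0.60 in the second table and -0.05 in the first. Its groups overlapped.

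Gluconeogenesis enzymes leaned in opposite directions in the 2 tables. Of 19 measured, 3 lay above 0 in the first table, with a median of -0.23, and 15 in the second, with a median of 0.12; 12 had opposite signs. With both tables in the fit 10 lay above 0 with a median of 0.00, none was higher and 1 was lower at an unadjusted p under 0.05, beside 13.6% and 1.2% of all genes. After median centring 2 lay above 0, with a median of -0.15 and 3 lower at that level, and after rescaling to TPM 15. The gene lower with both tables in the fit was Pck1, phosphoenolpyruvate carboxykinase, a rate-limiting step (chr2:173153048-173159273), with 358, 322, 966 and 765 FPKM in D-Ala and 868, 589, 1053 and 879 FPKM in Vehicle. The 2 D-Ala libraries of the first table were well below all others, those of the second lay among the Vehicle values, and the difference was -0.62 ± 0.25 (adjusted p = 0.281), -1.07 for the first table and -0.16 for the second. The same 2 libraries carried the high inner medulla markers; with that score in the fit the difference was -0.46, and the part of tissue makeup in it was not tested further. Fbp1, a fructose bisphosphatase, averaged 430.2 ± 195 FPKM in D-Ala and 425 ± 109.7 FPKM in Vehicle, and G6pc, glucose 6-phosphatase, 82.8 ± 22.4 FPKM in D-Ala and 70.6 ± 8.72 FPKM in Vehicle (SD, n = 4 each). Pcx, pyruvate carboxylase, averaged 149 ± 37.5 FPKM in D-Ala and 143 ± 20.5 FPKM in Vehicle, again with overlap. Got1, Got2, Gpt and Gpt2, the aminotransferases that link amino acids to the pathway, differed by 0.01 ± 0.10, -0.08 ± 0.11, -0.09 ± 0.16 and 0.10 ± 0.18. Of 20 measured regulators of gluconeogenesis and of CREB signalling 4 were higher at that level, Cebpd, Sik2, Nr3c1 and Creb1, and none was lower, beside the same 13.6% and 1.2% of all genes; after median centring 0 were higher and 1 lower. Cebpd, a C/EBP transcription factor, averaged 1.91 ± 0.448 FPKM in D-Ala and 1.14 ± 0.144 FPKM in Vehicle, without overlap (0.43 ± 0.17, adjusted p = 0.281).

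A list of 21 genes that differ with D-alanine over all times was taken from these same libraries, so its counts here are no independent evidence of direction. At CT8, 7 of its members were higher and 6 lower at an unadjusted p under 0.05, beside 13.6% and 1.2% of all genes. After rescaling to TPM 1 was lower, where 96 of all 17453 genes were. With no filter on low values it was also 1, where 358 of all 25482 genes were lower. Ces1g, a carboxylesterase, read 2.50, 7.40, 7.82 and 4.88 FPKM in D-Ala and 0.228, 1.91, 3.15 and 3.89 FPKM in Vehicle, a difference of 1.10 ± 0.37 (adjusted p = 0.272) beside 0.94 at the other times. In each table both D-Ala libraries were above both Vehicle libraries. C1ra, a protease of the complement pathway, averaged 5.78 ± 1.60 FPKM in D-Ala and 2.87 ± 0.384 FPKM in Vehicle (SD, n = 4 each), without overlap (0.78 ± 0.22). Mdk, the growth factor midkine, differed by 0.49 ± 0.23, beside 0.59 at the other times. Adm2, a peptide of the calcitonin family, averaged 1.57 ± 0.618 FPKM in D-Ala and 1.84 ± 0.639 FPKM in Vehicle (-0.14 ± 0.23), beside a mean difference of 0.59 at the other times. Gc, the vitamin D binding protein, gave 0.12 ± 0.22 beside 0.38, and Rnf24, a RING finger protein, -0.32 ± 0.30 beside -0.60.

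Whether a difference at CT8 departed from that at other times was tested directly. Against the mean of the other 5 times 0 genes (0%) were called, with a smallest adjusted p of 0.900 and 720 genes (4.83%) at an unadjusted p under 0.05. Against CT4 the counts were 0 (0%) called and 1260 (8.44%) unadjusted, and against CT12 0 (0%) and 370 (2.48%). In the test between tables, 0 genes (0%) were called for their CT8 response and 872 (5.84%) had an unadjusted p under 0.05. The 5 smallest p with CT8 above the other times were those of Recql, Srfbp1, a cofactor of serum response factor, Fam98a, Meox1, a homeobox factor, and Crispld2, a secreted protein; none passed and none was passed over. Crispld2 read 8.98, 5.42, 3.40 and 5.31 FPKM in D-Ala and 1.17, 1.33, 3.15 and 2.31 FPKM in Vehicle at CT8. Its groups did not overlap, with a difference of 1.17 ± 0.30 at CT8, 1.83 in the first table and 0.51 in the second. The mean difference over the other 5 times was 0.06, from -0.29 at CT4 to 0.54 at CT0. Meox1 averaged 3.49 ± 0.425 FPKM in D-Ala and 2.08 ± 0.407 FPKM in Vehicle, with a difference of 0.55 ± 0.15 at CT8. It was 0.83 in the first table and 0.27 in the second. Over the other times the mean was -0.02, from -0.15 at CT16 to 0.19 at CT0. Among named genes the 5 smallest p with CT8 below the other times, after 6 gene models known only by an identifier or clone name that were passed over, were those of Car5a, a mitochondrial carbonic anhydrase, Dio1, which activates thyroid hormone, Adm2, Ptcd2, a mitochondrial RNA-processing protein, and Pdzd11, a PDZ domain protein. Car5a averaged 0.756 ± 0.395 FPKM in D-Ala and 1.88 ± 1.04 FPKM in Vehicle (-0.67 ± 0.24). Over the other times its mean difference was 0.17, from -0.28 at CT12 to 0.54 at CT16. Dio1 averaged 7.36 ± 1.60 FPKM in D-Ala and 9.83 ± 1.87 FPKM in Vehicle (-0.38 ± 0.18), beside 0.23 at the other times.

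Of 14 measured genes of the amino acid stress response, 2 were higher at an unadjusted p under 0.05 and none lower. The counts for each list here stand beside the 13.6% of all genes higher and 1.2% lower at that level, and 2 of 14 or 15 is close to the share of all genes that were higher. Psat1, an enzyme of serine synthesis, read 15.9, 13.2, 3.74 and 9.49 FPKM in D-Ala and 4.49, 4.36, 3.85 and 3.96 FPKM in Vehicle (1.02 ± 0.38), and Vldlr, a lipoprotein receptor, differed by 0.27 ± 0.11. In Psat1 D-Ala replicate 3 was below all Vehicle libraries and the other 3 far above, an order shared with the inner medulla marker sums. The share of all genes in that order was not counted, and the part of tissue makeup was not tested. Atf4, the factor that drives this response, averaged 66.1 ± 7.44 FPKM in D-Ala and 52.6 ± 2.99 FPKM in Vehicle (SD, n = 4 each) without overlap (0.32 ± 0.17, adjusted p = 0.365). Endoplasmic reticulum chaperones lay above 0 in 16 of 17, with 2 at that level, Dnajb11 and Hyou1, and a median of 0.25 that was 0.06 in the second table. Of 15 cholesterol synthesis genes, Cyp51, a sterol demethylase, was lower (-0.47 ± 0.18) and Sc5d, a sterol desaturase, higher (0.31 ± 0.14) at that level. Pfkl and Pkm, phosphofructokinase and pyruvate kinase, were the 2 of 14 glycolysis genes at that level, the first table giving 0.92 and 1.06 and the second 0.26 and 0.03. Of 15 interferon response genes 2 were higher at that level, Usp18 (0.41 ± 0.16) and Rsad2 (0.52 ± 0.21). None of 13 genes of the NRF2 oxidative stress response and none of 23 sodium, water and urea transporters was at that level.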

How the data were processed

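RNA-seq of 48 mouse kidney libraries was used as 2 deposited tables of FPKM, fragment counts scaled by exon length and library size, which the authors computed per gene and library. The submitters' processing notes name the builds GRCm38 and mm10; no source used here states the aligner or counter. From the steps of low FPKM values and GENCODE M21 exon lengths, 97.1 to 97.6% of values in the CT8 libraries came out as whole fragments (within 0.05, under 20 fragments), which gave the depths. Genes with FPKM of at least 1 in at least 4 of 48 libraries (14922 of 49585) entered limma 3.58.1 in R 4.3.3 on log2(FPKM + 1), a scale that understates the change of low genes, with 12 groups, an additive table term and an intensity trend in the variance. The contrast was D-Ala minus Vehicle at CT8, with Benjamini-Hochberg adjustment over all genes and a threshold of 0.05; separate contrasts set it against other times and compared the tables. voom on recovered fragments was an alternative. Depth limits low genes most. The script was tested on simulated data.

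Named genes were the 10 with the smallest p in each direction with the same sign in both tables, 5 in each direction against the other times, the members of 5 main lists, and up to 5 with the smallest p of each other list. The members and lists were chosen with earlier results of these data known. Replicate numbers follow accession order and only name libraries.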

Additional observations from a re-analysis of the deposited data

Results flagged for a closer look

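In 268 groups of 4 values (the genes named above, the marker sums and the mitochondrial share, in each treatment), 7 had a library whose gap to its nearest neighbour was larger, as a part of the whole range, than Dixon's 95% critical value; chance alone would give this in about 1 in 20 groups. Jun read 17.54 FPKM in D-Ala replicate 3, against 4.84 to 6.533 FPKM in the other D-Ala libraries. Ehd3 read 6.375 FPKM in D-Ala replicate 4, below 9.973 to 10.13 FPKM in the others. Among Vehicle libraries, Prelp stood at 5.143 FPKM and Usp18 at 0.9329 FPKM in replicate 3, against at most 2.458 and 0.4707 FPKM in the others. The fibroblast and mesangium markers of the same library summed to 36.88 FPKM, against 19.1 to 20.54 FPKM. Hspa1a read 4.116 FPKM in Vehicle replicate 4, against 2.757 to 2.968 FPKM, and Emcn 6.769 FPKM in Vehicle replicate 1, against 7.87 to 7.906 FPKM.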

How the results depend on the processing

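No alternative called a gene at CT8, so the count of 0 held under each pseudocount, filter, scaling, table and covariate setting run, and with each of the 8 libraries left out in turn. The unadjusted counts did move: 2215 genes became 3792 after rescaling to TPM (3696 higher, 96 lower), 1567 after median centring, 1408 under quantile normalization, 1305 with no table term, 1489 with the inner medulla score, 900 with only the second table, 638 without D-Ala replicates 1 and 2, and 1198 to 2603 with a library left out. The smallest adjusted p ran from 0.0526 without Vehicle replicate 3 to 0.611 without Vehicle replicate 1. Of 283 genes followed, 39 changed sign after median centring, 37 with only the first table, 58 with only the second and 25 without D-Ala replicates 1 and 2, a setting chosen after seeing the data; the cause was not tested. The mitochondrial share stayed lower, by -4.55 to -2.99 points, with any library left out. No paired analysis was possible because the labels carry no replicate numbers. With 4 libraries a group, 2 from each table, differences of single genes below the spread between libraries were not detectable.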
